A study of Mus musculus with 6 samples.

Results

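Loss of Apoer2, the reelin receptor encoded by Lrp8, was followed across a receptor cross in 4 of the series' 6 microarrays. The 4 arrays hold 1 frontal cortical lobe each, labelled Wild type, VLDLR KO, APOER2 KO and APOER2-VLDLR KO, all bred from mice heterozygous for both receptor genes. They form 2 pairs of like Vldlr status that share no array. In the Vldlr-positive pair, APOER2 KO was set against Wild type, and in the Vldlr-null pair, APOER2-VLDLR KO was set against VLDLR KO. Members were the autosomal genes measured on these arrays: 18194 genes had a named probe set, 11499 passed a filter on mean signal and 11077 of those are autosomal. The rule then looks at the 5733 autosomal genes whose difference had the same sign in both pairs.

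All mice were aged 21 days, untreated, labelled male and on a mixed C57BL/6 and 129 background. The DAB1 KO and REELIN KO arrays, from other crosses, carry intact receptor genes by their labels and served as outside readings. They also entered the mean signal that chose probe sets and filtered genes, and an alternative fit. The labels do not say which part of each receptor gene was deleted, and 1 mouse stands for each genotype. Values are MAS5 signals, in linear units of probe brightness. Differences are on a log2(signal + 28) scale, which understates the change of dim genes. The limma p-values below treat arrays of different genotype as replicates, 2 without Apoer2 against 2 with it, so they measure only the spread between these arrays. An exact permutation test of 2 arrays against 2 cannot go below p = 0.333.

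Reelin is a secreted glycoprotein that binds Apoer2 and the very-low-density lipoprotein receptor, and the adaptor Dab1, which docks on their tails, is then phosphorylated by Src-family kinases. In the developing cortex this signal sets the position of migrating neurons. Apoer2 also sits at synapses, where it associates with NMDA receptors, and it takes up selenoprotein P, the protein that carries selenium to the brain.

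Median signal was 86.5 to 92.3 over the 6 arrays. The highest of 15 bacterial control probe sets, a measure of background, read 20.1 to 38.9. The labelled sex did not hold in the data on most arrays. Xist, which coats and silences the inactive X chromosome, read 3498.1 in Wild type, 3820.0 in VLDLR KO, 124.9 in APOER2 KO and 4006.0 in APOER2-VLDLR KO, while the Y-linked Eif2s3y read 7.1, 0.6, 367.5 and 7.7 in the same order. The Vldlr-positive pair therefore sets an array with Y-linked signal against one with Xist, and the Vldlr-null pair sets 2 arrays with Xist against each other. Growth hormone, Gh, read 3704.8 in APOER2 KO and 13.1 to 32.4 elsewhere. Granule cell genes of the cerebellum read low in APOER2-VLDLR KO, DAB1 KO and REELIN KO (their values are given with the cell type lists). In whole lobes, fewer cells of a type and less RNA per cell cannot be told apart.

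Lrp8, the deleted gene, was low on both arrays labelled as lacking it. Its brightest probe set read 357.8 in Wild type and 379.8 in VLDLR KO, against 4.2 in APOER2 KO and 13.7 in APOER2-VLDLR KO. Both arrays without Apoer2 lay below the highest bacterial control on the same array, and both arrays with it lay far above. Lrp8 fell by 3.44 on the log2 scale (SE 0.21, limma adjusted p = 0.0023, Benjamini-Hochberg). Set against the background controls, the signal was at least 15.2-fold lower. A second probe set read 304.8 and 290.5 with Apoer2 and 7.0 and 4.8 without it, at least 12.3-fold lower. The dimmest of the 3 probe sets read 91.3 and 89.6 with the gene and 56.4 and 57.3 without it, a far smaller separation in the same direction. DAB1 KO and REELIN KO read 370.1 and 342.4 at the brightest probe set, beside the arrays with Apoer2. Vldlr, the other reelin receptor, followed its own genotype: its probe set read 551.6 in Wild type and 491.7 in APOER2 KO, against 187.3 in VLDLR KO and 185.6 in APOER2-VLDLR KO.

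**Figure D1:**
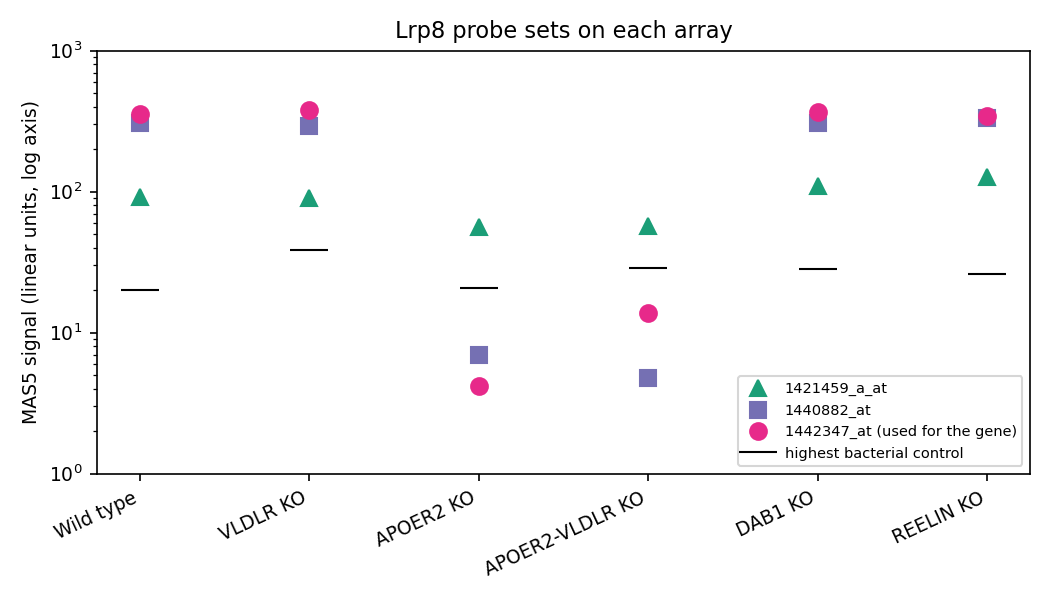
MAS5 signal (linear units on a log axis) of the 3 Lrp8 probe sets on each of the 6 arrays, with a bar at the highest bacterial control of that array. In APOER2 KO and APOER2-VLDLR KO the 2 brighter probe sets lie below the bar and the dimmest reads 56.4 and 57.3, while on the other 4 arrays all 3 probe sets lie above it.

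Apart from Lrp8, the pairs shared little. The difference had the same sign in both for 51.8% of autosomal genes, with 3123 higher (28.2%), 2610 lower (23.6%) and 5344 opposite (48.2%). Over genes, which are not independent replicates, Pearson's r between the pair differences was 0.0699 and Spearman's rho 0.0449, and r was 0.0558 without Lrp8. The spread of the differences was wider in the Vldlr-null pair (SD over genes 0.29) than in the Vldlr-positive pair (0.24), and the medians were 0.02 and 0.01. In limma, 3 of 11499 genes passed an adjusted p of 0.05: Lrp8 was lower (1 gene, 0.00870%), and Pam and Gnb1 were higher (2 genes, 0.0174%). Without adjustment, 234 genes (2.03%) were higher and 174 (1.51%) lower at a limma p of 0.05. Taken singly, the Vldlr-positive pair had 133 autosomal genes at least 1.5-fold higher (1.20%) and 130 lower (1.17%), and the Vldlr-null pair 248 higher (2.24%) and 220 lower (1.99%).

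Pam encodes the enzyme that amidates the C-terminus of neuropeptides. It read 167.4 in Wild type and 163.7 in VLDLR KO, against 826.3 in APOER2 KO and 975.2 in APOER2-VLDLR KO. Both arrays without Apoer2 were high and the groups lay far apart. Pam rose by 2.26 (SE 0.14, 4.78-fold, limma adjusted p = 0.0023), with 2.13 in the Vldlr-positive and 2.39 in the Vldlr-null pair. DAB1 KO and REELIN KO read 219.4 and 232.3, near the arrays with Apoer2.

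Gnb1 encodes a beta subunit of heterotrimeric G proteins. It read 1991.5 in Wild type and 1983.9 in VLDLR KO, against 4404.9 in APOER2 KO and 3902.1 in APOER2-VLDLR KO. The 2 groups of the cross did not overlap, and the log2 difference was 1.05 (SE 0.10, 2.07-fold, limma adjusted p = 0.0375). Of the arrays outside the cross, which have Apoer2, DAB1 KO read as high at 4525.8 and REELIN KO read 2700.4. With these 2 outside arrays added to the arrays with Apoer2, the adjusted p was 0.99971. A second probe set gave 401.4 and 491.0 with Apoer2, 1798.9 and 1179.9 without it, 1951.9 in DAB1 KO and 405.0 in REELIN KO.

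A threshold of 1.5-fold in each pair kept 37 autosomal genes, 19 higher (0.172%) and 18 lower (0.162%). As many as 19 genes (0.172%) passed 1.5-fold in opposite directions, so the number of genes that agree is read with that in view. Just inside the threshold lay Cd74 (0.59 in the Vldlr-positive and 0.72 in the Vldlr-null pair) and Abcd2 (-0.59 and -1.90), and just outside it Zfp953 (0.61 and 0.58) and Olfml3 (-1.18 and -0.58). Of the 37, 36 had both arrays without Apoer2 on 1 side of both arrays with it, the exception being Tent5c, where the background was 16.7% higher and 13.6% lower. That follows largely from the threshold.

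The DAB1 KO and REELIN KO arrays played no part in the 1.5-fold threshold. They did enter the mean signal over 6 arrays that chose probe sets and filtered genes, so the shares below are not independent of them. Of the 18 higher genes without overlap, 6 (33.3%) also lay above both outside arrays, and of the 18 lower genes, 10 (55.6%) lay below both. Among all autosomal genes without overlap in the cross the shares were 30.6% and 29.1%. Over all 11077 genes, 5.11% lay above and 3.96% below all 4 arrays with Apoer2. A further 13 probe sets past the filter belong to 11 of the 37 genes, and 11 of the 13 had the same direction in both pairs. The 2 that did not were probe sets of Abcd2 (0.09 and -0.95) and Pip4k2c (-0.14 and 0.19). These probe sets read the same arrays for genes already chosen by direction, and a probe set of Lrp8 is among the 13. The share over all genes was not counted, so the agreement is no separate evidence.

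**Figure D2:**
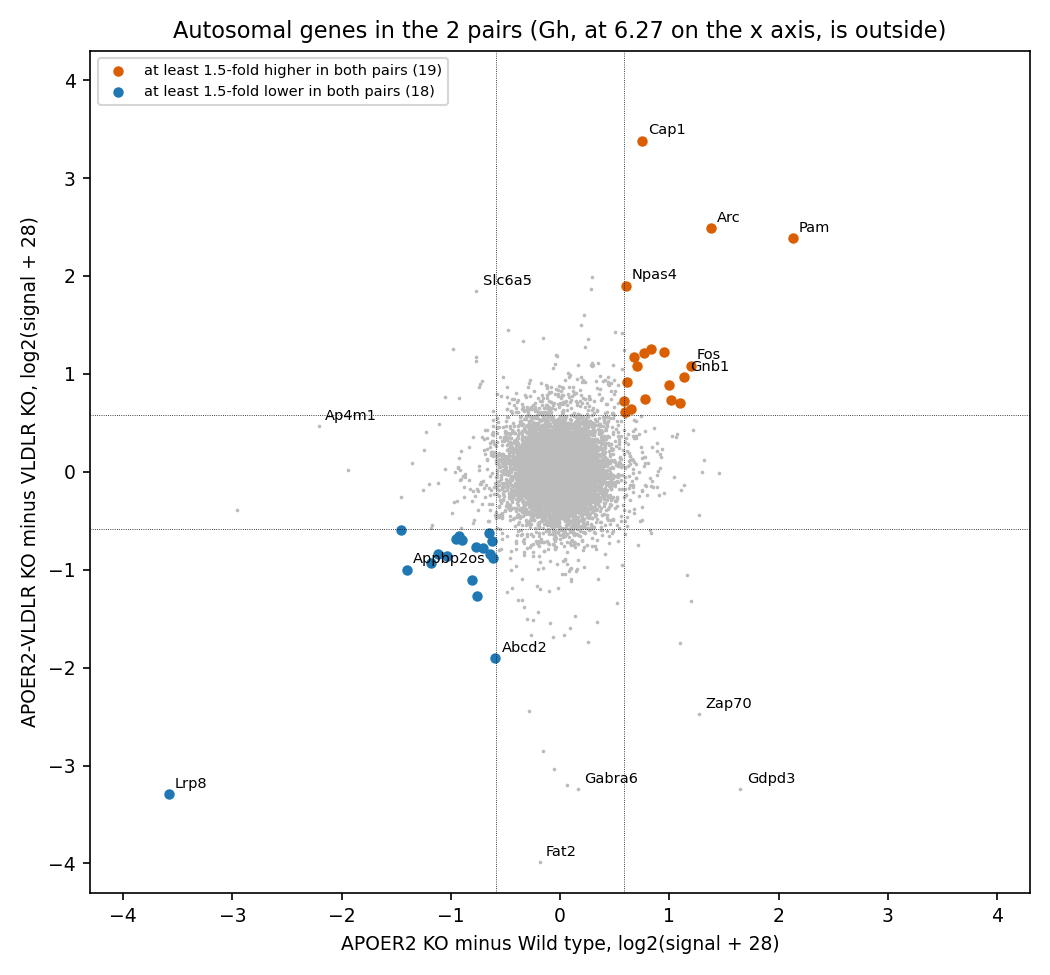
Each point is 1 autosomal gene, with its log2 difference between APOER2 KO and Wild type on the x axis and between APOER2-VLDLR KO and VLDLR KO on the y axis; dotted lines mark 1.5-fold. The cloud has no visible slope (r = 0.0699), and Lrp8 at -3.58 and -3.29 and Pam at 2.13 and 2.39 stand far out along the diagonal.

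Among the higher genes, Acer2, which encodes a Golgi ceramidase, read 112.0 and 88.6 with Apoer2 and 242.3 and 244.9 without it. The outside arrays lay between, at 202.6 in DAB1 KO and 209.4 in REELIN KO. Rpgrip1, a gene of the photoreceptor cilium, read 262.6 and 276.6 with Apoer2 and 551.0 and 535.5 without it. Its outside readings spanned a wider range than the cross itself, from 38.9 in REELIN KO to 503.2 in DAB1 KO.

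Cap1 encodes an actin-regulating protein. It read 983.6 in Wild type, 130.1 in VLDLR KO, 1668.8 in APOER2 KO and 1621.2 in APOER2-VLDLR KO. The arrays without Apoer2 were alike, and the difference of 3.38 in the Vldlr-null pair, against 0.75 in the other, came with the low VLDLR KO reading. A second Cap1 probe set had the same low reading in VLDLR KO, 42.7 against 892.8 in Wild type.

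Hoxa9, a homeobox gene of posterior body regions, read 89.5 and 114.0 with Apoer2 and 208.9 and 208.6 without it, but DAB1 KO read 185.7. Ercc1, whose product is part of a DNA repair nuclease, read 336.6 and 442.9 with Apoer2 and 750.8 and 736.2 without it, and REELIN KO read 838.7. In both genes the cross separated cleanly and an outside array with Apoer2 lay near or above the arrays without it. Tent5c, a gene for a non-canonical poly(A) polymerase, was the gene with overlap: VLDLR KO (141.8) lay above APOER2 KO (112.2). R3hcc1l, Cdkl4, Sbsn, Mroh3 and Cd74, the last encoding the invariant chain of MHC class II, were 1.52-fold to 1.70-fold higher in the mean of both pairs. R3hcc1l passed the filter on mean signal only with the outside arrays counted.

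Among the lower genes, Appbp2os, an antisense transcript, read 154.8 and 103.8 with Apoer2 and 41.2 and 37.9 without it, and the outside arrays read 145.1 and 105.7. Zfp746, a zinc finger repressor gene, read 196.6 and 245.6 with Apoer2, 81.8 and 122.3 without it, and 238.6 and 208.3 outside. Appbp2os passed the filter on mean signal only with the outside arrays counted, so their readings of this gene are no separate evidence. Both genes kept every array with Apoer2 above both arrays without it. Defa39, a member of the alpha-defensin family, did the same, with 261.4 and 245.1 against 105.2 and 125.1. Its probe set can bind near-identical family members, so the gene identity is uncertain. Pip4k2c, a gene for a phosphoinositide kinase, read 1106.2 and 1058.1 with Apoer2, 695.2 and 674.1 without it and 1195.5 and 1258.3 outside. The second Pip4k2c probe set did not follow, as given above.

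Other lower genes were as low on an outside array as without Apoer2. Pan3, which encodes a subunit of a poly(A)-shortening complex, read 634.9 and 698.8 with Apoer2, 351.2 and 309.7 without it, and 292.5 and 298.7 in DAB1 KO and REELIN KO. Fn3krp, a gene for a sugar-amine kinase, read 157.5 and 181.3 in the cross with Apoer2, 54.0 and 81.9 without it and 71.0 and 57.9 outside. Shisa4, which encodes a membrane protein, read 2132.6 and 2093.7 with Apoer2 and 1293.8 and 1209.2 without it, and REELIN KO was lower still at 423.5. For these 3 genes the receptor cross separated. At least 1 array outside it read below both arrays without Apoer2 for Pan3 and Shisa4, and for Fn3krp both outside arrays lay between those 2 arrays.

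A few glial genes were among the lower members, though the glial marker lists had no common direction: of 14 astrocyte genes 4 were higher and 6 lower in both pairs, and of 10 microglial genes 2 were higher and 5 lower. Over all autosomal genes the shares were 28.2% higher and 23.6% lower. Aqp4, the water channel of astrocyte endfeet, read 1871.1 and 1398.4 with Apoer2 and 1207.7 and 846.5 without it, and REELIN KO read 924.1. Its 2 further probe sets were also lower in both pairs. Fcrls, a microglial receptor gene, read 264.1 in Wild type, 137.4 in VLDLR KO, 126.0 in APOER2 KO and 76.7 in APOER2-VLDLR KO. The Fcrls groups were separated by a narrow gap. Slc2a5, the fructose transporter gene that in brain marks microglia, read 165.0 and 190.7 with Apoer2 and 72.0 and 107.7 without it. Vps33b, Hddc3, Card10, Abcd2, Necab1, Rps6 and Smpd2 complete the lower members, 1.67-fold to 2.38-fold lower in the mean of both pairs.

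**Figure D3:**
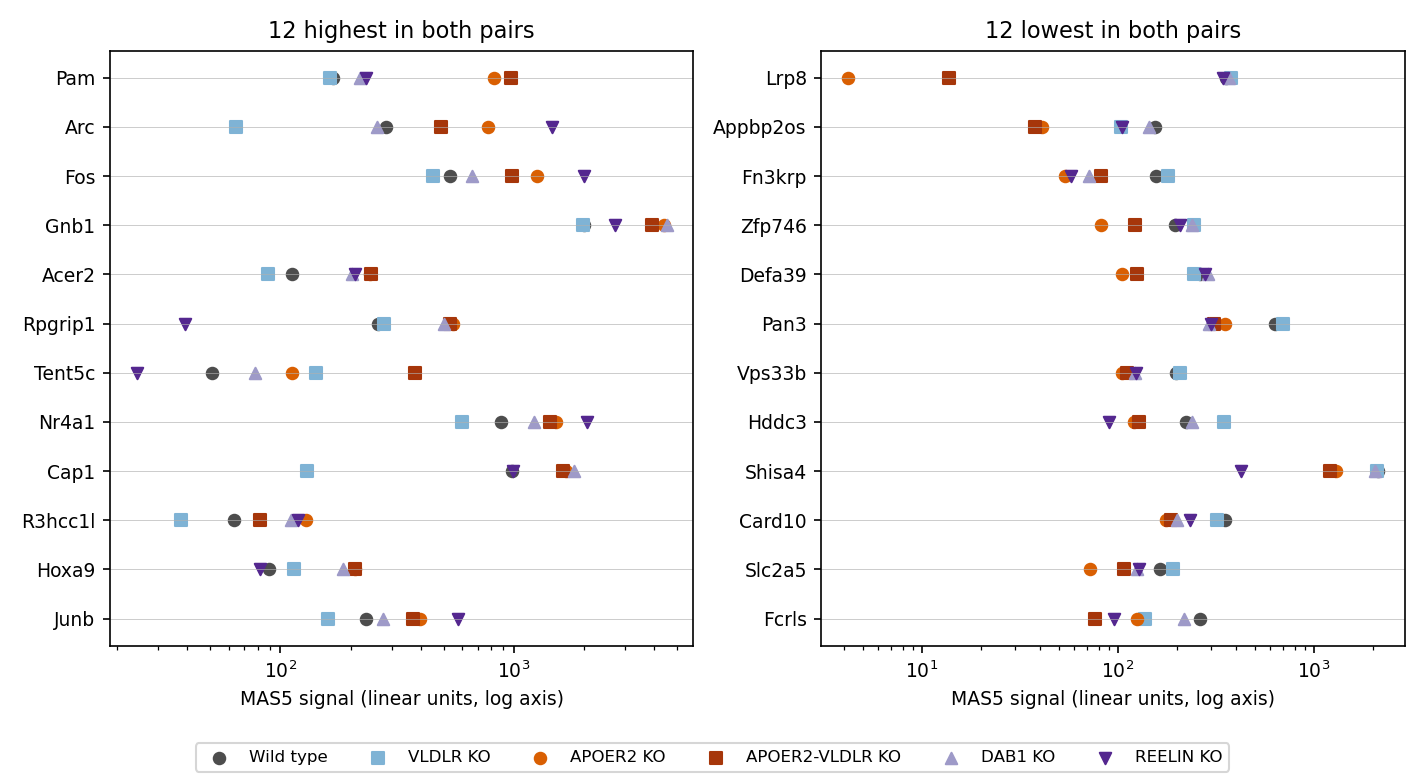
MAS5 signal (linear units on a log axis) on all 6 arrays for the 12 autosomal genes highest and the 12 lowest in both pairs, ordered by the smaller of the 2 pair differences. Lrp8 and Pam separate the 2 arrays without Apoer2 from all 4 with it, while for Gnb1 the DAB1 KO point (4525.8) lies at the arrays without Apoer2.

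The chromosome that carries Lrp8 held 7 of the 37 genes (18.9%), against 693 of 11077 autosomal genes (6.26%). These were Lrp8 and 6 others, 3 higher (Acer2, Cap1 and Gnb1) and 3 lower (Rps6, Slc2a5 and Necab1). Counted in the gene order of RefSeq's mouse annotation, the nearest were Acer2 and Rps6, which lie side by side 315 and 316 genes away. Cap1 lay 365 genes away and the rest 1224 to 1346. Gene order gives no genetic distance, and linkage to Lrp8 was not tested. Among the 25 genes on each side of Lrp8, 15 passed the signal filter, and 5 were higher in both pairs, 3 lower in both and 7 opposite. The highest of these neighbours was Lrrc42 (log2 difference 0.31) and the lowest Mrpl37 (-0.25), and 0 passed 1.5-fold in both pairs. The median size of the mean difference was 0.13 among the neighbours and 0.10 over all autosomal genes. Which parental strain each array carried along this chromosome was not tested.

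Immediate early genes, which neurons switch on within minutes of activity, gave a large part of the higher members: Arc, Fos, Nr4a1, Junb and Npas4 were 5 of the 19. Of 26 such genes past the signal filter, from a list of 29, 18 were higher in both pairs, 2 lower in both and 6 opposite, against 28.2%, 23.6% and 48.2% of autosomal genes. The groups did not overlap for 15 higher and 1 lower member, where 16.7% and 13.6% of autosomal genes were without overlap. The median difference was 0.50 in the Vldlr-positive and 0.26 in the Vldlr-null pair, where all autosomal genes had 0.01 and 0.02. Without adjustment, 12 members were higher and 0 lower at a limma p of 0.05 (2.03% and 1.51% of all genes), and 0 passed an adjusted p of 0.05.

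Arc, which encodes a postsynaptic protein that regulates AMPA receptor uptake, read 282.4 in Wild type, 64.4 in VLDLR KO, 778.9 in APOER2 KO and 489.9 in APOER2-VLDLR KO. Both arrays without Apoer2 were higher, and the VLDLR KO reading stood below the rest. The difference was 1.93 (SE 0.50), with 1.38 in the Vldlr-positive and 2.49 in the Vldlr-null pair. Fos, a subunit of the AP-1 transcription factor, read 535.0 and 449.0 with Apoer2 and 1262.4 and 984.1 without it. The Fos pairs were alike, at 1.20 and 1.09 (mean 1.14, SE 0.15, limma adjusted p = 0.204). With Vldlr status as a term in the fit, the adjusted p for Fos was 0.0198.

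Nr4a1, a nuclear receptor gene, read 882.6 and 597.1 with Apoer2 and 1519.3 and 1422.9 without it. Junb, another AP-1 subunit, read 231.6 and 160.2 with Apoer2 and 396.1 and 370.5 without it. Npas4, a transcription factor gene of neurons that calcium entry switches on, read 93.5 and 40.3 against 156.2 and 227.3. In all 3 genes VLDLR KO was the lowest array of the cross. The phosphatase gene Dusp1 (582.0 and 380.8 with Apoer2, 834.1 and 1072.2 without it) and the zinc finger gene Egr1 (3120.3 and 3504.0, against 5225.0 and 4195.0) also separated the groups, Dusp1 more widely in the Vldlr-null pair and Egr1 in the Vldlr-positive pair.

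The remaining members ranged widely. Gadd45b (0.71), Ccn1 (0.69), Ier2 (0.69), Egr2 (0.60), Klf4 (0.58), Egr4 (0.55) and Fosb (0.40) had positive differences in both pairs (mean of the pairs in parentheses). Of these, Ccn1 passed the filter on mean signal only with the outside arrays counted. Bdnf (0.12), Homer1 (-0.04), Jun (-0.03) and Nptx2 (-0.21) lay close to 0 or below. Nr4a3 differed by 0.71 in the Vldlr-positive pair and by -0.74 in the Vldlr-null pair.

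High activity-gene signal was not limited to arrays without Apoer2. The summed signal of the 26 genes was 14118.1 in Wild type and 13226.2 in VLDLR KO, 20152.0 in APOER2 KO and 17548.5 in APOER2-VLDLR KO, but 23380.5 in REELIN KO and 14642.0 in DAB1 KO. REELIN KO, which carries Apoer2, was the highest of the 6. With both outside arrays added to the arrays with Apoer2, the median of the list was 0.30 in place of 0.50. Handling of the mice before death is not given in the labels, and its part in these values was not tested.

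The promoters of 4 of these genes are shown because the CREB core motif TGACG is a known feature of activity-induced promoters. Each runs from 250 bases before to 50 bases after the RefSeq start of the gene (GRCm38.p6), 5′ to 3′ on the strand of the gene, with TGACG and its reverse complement CGTCA in capitals. Fos lies at chr12:85473640-85473939 on the plus strand, Junb at chr8:84978699-84978998 on the minus strand, Npas4 at chr19:4989922-4990221 on the minus strand and Nr4a1 at chr15:101266596-101266895 on the plus strand.
Fos: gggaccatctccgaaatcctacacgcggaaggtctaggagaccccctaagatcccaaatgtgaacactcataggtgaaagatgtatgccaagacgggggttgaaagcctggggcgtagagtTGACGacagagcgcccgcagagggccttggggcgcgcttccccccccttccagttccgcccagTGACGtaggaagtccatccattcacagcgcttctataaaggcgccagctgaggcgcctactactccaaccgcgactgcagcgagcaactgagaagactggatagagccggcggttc
Junb: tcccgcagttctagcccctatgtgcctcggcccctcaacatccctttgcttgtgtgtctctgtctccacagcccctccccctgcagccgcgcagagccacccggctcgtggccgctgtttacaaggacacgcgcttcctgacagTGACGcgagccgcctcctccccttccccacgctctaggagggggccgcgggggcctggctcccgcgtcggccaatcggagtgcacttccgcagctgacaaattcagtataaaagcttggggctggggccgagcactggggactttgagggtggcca
Npas4: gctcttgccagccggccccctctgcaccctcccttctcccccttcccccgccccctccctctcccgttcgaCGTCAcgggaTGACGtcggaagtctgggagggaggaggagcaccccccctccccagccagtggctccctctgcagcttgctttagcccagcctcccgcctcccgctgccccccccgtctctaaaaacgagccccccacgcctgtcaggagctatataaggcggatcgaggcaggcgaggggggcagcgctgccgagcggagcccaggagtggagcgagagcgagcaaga
Nr4a1: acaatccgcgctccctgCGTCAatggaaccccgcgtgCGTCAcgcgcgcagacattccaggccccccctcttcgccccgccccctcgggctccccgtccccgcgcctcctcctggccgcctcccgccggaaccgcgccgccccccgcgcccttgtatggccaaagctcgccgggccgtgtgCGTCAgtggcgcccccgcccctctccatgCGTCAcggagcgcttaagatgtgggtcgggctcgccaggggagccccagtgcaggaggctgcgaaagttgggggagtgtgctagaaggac
The motif occurred 2 times in Fos, 1 time in Junb, 2 times in Npas4 and 4 times in Nr4a1, on either strand. It was present in 20.8% of all 32851 promoter windows and, per gene, in 23.0% of genes with a window. Of 21 genes of the immediate early list with a window, 17 (81.0%) held it. The full palindrome TGACGTCA, which contains the shorter motif, was in none of the 4 windows shown and in 1.79% of all, and a serum response element core (CArG box) was in none of the 4 and in 1.63% of all. These are matches of letters only. Sequence more than 250 bases before the start was not searched, so a motif absent here may lie further upstream.

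Glucocorticoid targets, which rise with stress hormone, had the same direction in nearly every member. Of 14 past the filter, 13 were higher in both pairs (28.2% of autosomal genes) and the remaining one, Zbtb16, was opposite. The groups did not overlap for 12 of the 13 (16.7% of autosomal genes were higher without overlap), and the median difference was 0.32 in the Vldlr-positive and 0.41 in the Vldlr-null pair. By limma, 8 passed an unadjusted p of 0.05, all higher (2.03% of all genes), and 0 passed an adjusted p of 0.05. Per1 stands in both this list and that of immediate early genes.

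Sgk1, a kinase gene induced by corticosteroids, was the highest. It read 1346.3 and 1089.6 with Apoer2 and 2169.7 and 2495.1 without it, a difference of 0.93 (SE 0.13, limma adjusted p = 0.227). Fkbp5, which encodes a co-chaperone of the glucocorticoid receptor, read 517.7 and 489.3 with Apoer2 and 668.9 and 870.8 without it. Both genes separated the groups of the cross, yet DAB1 KO and REELIN KO, with Apoer2, read 985.9 and 1985.8 for Fkbp5, above both arrays without it.

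Ddit4, an inhibitor of the mTOR pathway, read 998.9 and 1162.7 against 1411.4 and 1714.2. The lipid-handling genes Plin4 (70.6 and 85.3, against 105.6 and 186.3) and Angptl4 (67.1 and 57.2, against 88.1 and 156.2) were dim and wider apart in the Vldlr-null pair. The metallothionein genes Mt1 (0.32) and Mt2 (0.30), whose products bind zinc, were higher in both pairs by smaller amounts. The summed signal of the list was 12151.2 in Wild type, 12511.5 in VLDLR KO, 15791.5 in APOER2 KO and 17068.9 in APOER2-VLDLR KO. It was 15754.9 in DAB1 KO, just below APOER2 KO, and 23592.5 in REELIN KO, above both arrays without Apoer2. With both outside arrays added to the arrays with Apoer2 the median of the list was 0.09 in place of 0.36.

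**Figure D4:**
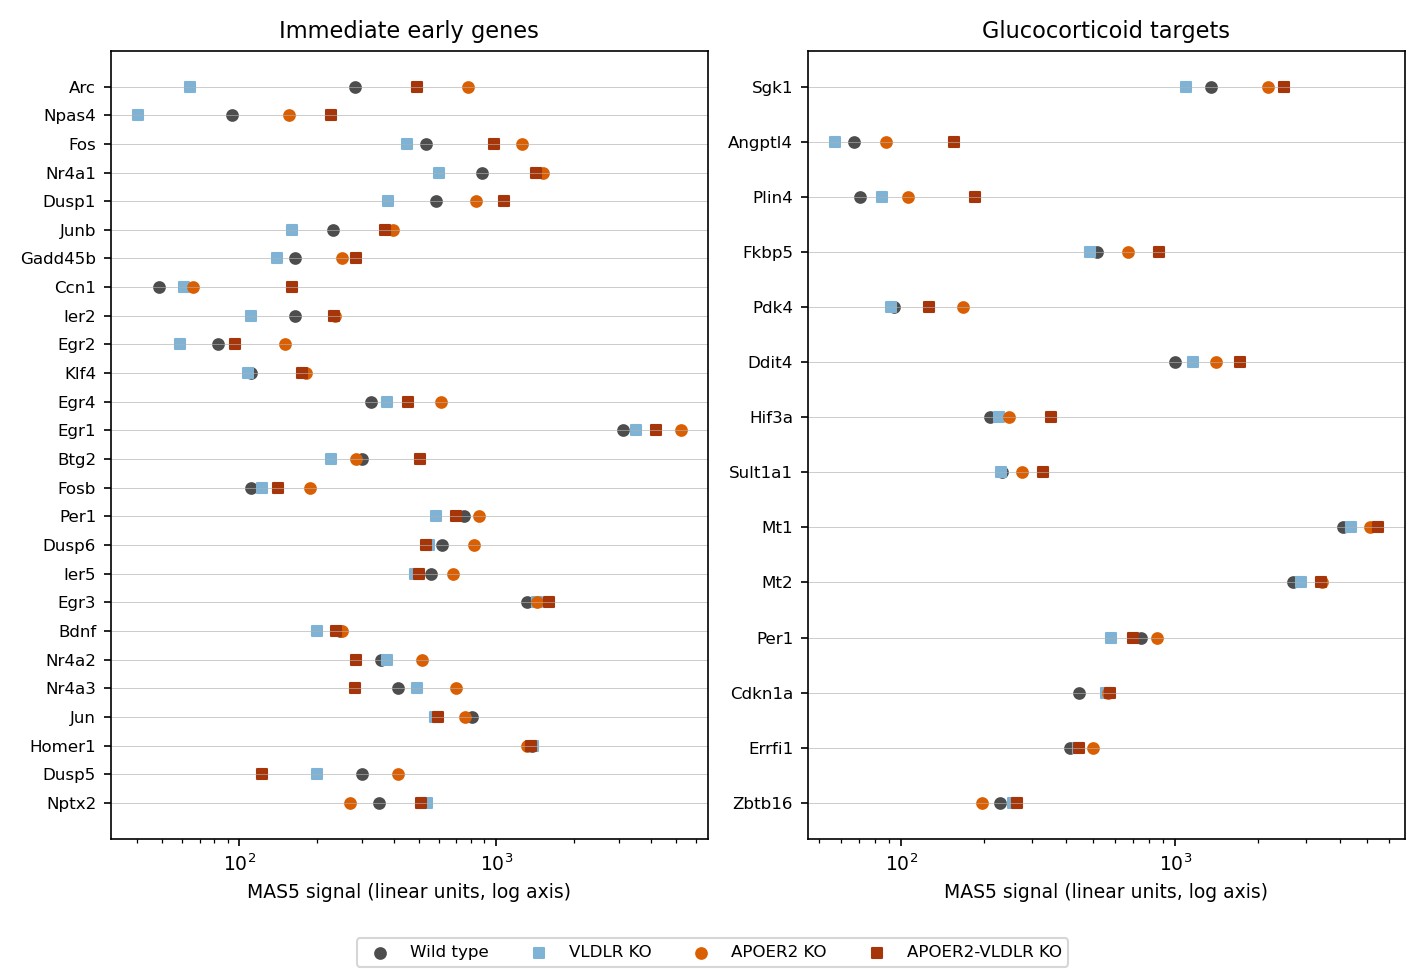
MAS5 signal (linear units on a log axis) on the 4 arrays of the receptor cross for 26 immediate early genes and 14 glucocorticoid targets, ordered by mean difference. For Arc, Fos, Nr4a1, Junb and Sgk1 both arrays without Apoer2 (orange and brown) lie to the right of both with it, and toward the bottom of each panel the colours mix.

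The reelin pathway itself showed no common direction. Of 33 genes, 7 were higher in both pairs, 8 lower in both and 18 opposite, with a median difference of 0.03, and 0 passed 1.5-fold in both pairs. For this and the lists below, the shares over all autosomal genes were 28.2% higher, 23.6% lower and 48.2% opposite. Reln, the ligand, read 1669.0 and 1880.0 with Apoer2 and 1819.7 and 1498.3 without it. Dab1, the adaptor, read 576.2 and 626.0 with Apoer2 and 573.1 and 516.4 without it, a gap smaller than the spread within either group. Among the kinases, Fyn read 1212.4 and 1374.7 against 1180.7 and 1367.8, and Src 494.2 and 519.4 against 490.7 and 551.8, with the groups overlapping for both. Crkl, an adaptor that binds phosphorylated Dab1, was highest (0.38, SE 0.17) with 618.3 and 445.0 against 735.2 and 645.6, and Cdk5, a kinase that acts beside the pathway in neuronal migration, was the only member at an unadjusted limma p of 0.05 (0.29, SE 0.12, adjusted p = 0.9997).

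Among ligands and binding partners of Apoer2, 8 of 17 genes were higher in both pairs, 3 lower in both and 6 opposite. Apoe, the main lipid carrier of the brain, read 7112.5 and 7416.9 with Apoer2 and 8819.4 and 9953.6 without it. Clu, which encodes the lipoprotein clusterin, read 3446.1 and 3226.2 against 4213.7 and 4504.1. Selenop, the gene for selenoprotein P, read 4011.9 and 3866.4 against 4326.9 and 4892.4. These 3 ligand genes were higher on both arrays without the receptor by less than 1.5-fold. The differences were 0.37 (SE 0.10) for Apoe, 0.38 (SE 0.09) for Clu and 0.22 (SE 0.10) for Selenop, each with an adjusted p of 0.9997 in limma. Other ligand genes did not all follow. Reln (0.12 and -0.32) and Spon1 (-0.12 and 0.34) were opposite in the pairs, while Thbs1 (0.38 and 0.07) was higher in both. Thbs1 passed the filter on mean signal only with the outside arrays counted. Outside the cross, DAB1 KO read 9008.3 for Apoe and 4769.8 for Selenop, within the range without Apoer2, and 3771.7 for Clu, below it. REELIN KO read 7614.1 for Apoe, 4149.1 for Selenop and 4139.5 for Clu, below that range for all 3.

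Selenoproteins and selenium-handling genes split evenly, with 8 of 27 higher in both pairs, 8 lower in both and 11 opposite. Gpx4, a peroxidase that protects membrane lipids, was highest (0.33) and Selenoh lowest (-0.41), and the median was -0.01. Other members of the LDL receptor family leaned lower, with 1 of 13 higher in both pairs, 7 lower in both and a median of -0.08. The family ranged from Lrp2 (0.25), a receptor of epithelia, to Ldlrad3 (-0.31), and 0 members passed an unadjusted limma p of 0.05 in either direction.

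Glutamate receptor and postsynaptic genes had 5 of 24 members higher in both pairs, 12 lower in both and 7 opposite. Grin2b, the NMDA receptor subunit gene, read 894.0 and 1078.0 with Apoer2 and 765.1 and 838.5 without it (-0.28, SE 0.13). Grm3, a metabotropic receptor gene, read 497.7 and 426.7 with Apoer2 and 303.8 and 292.2 without it (-0.58, SE 0.14), and REELIN KO read 197.5. Grm4, the lowest member and a receptor of cerebellar granule cells, read 1386.9 and 1022.8 against 1002.1 and 544.1. The list's median was -0.04 in the Vldlr-positive and -0.26 in the Vldlr-null pair, where granule cell markers were also lower (median -1.66), and their part in this list was not tested.

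Sterol synthesis genes were lower in both pairs for 9 of 17 members and higher in both for 0, with medians of -0.17 and -0.12. Over all autosomal genes, 23.6% were lower and 28.2% higher in both pairs. Dhcr7, which catalyses the last step to cholesterol, read 534.0 and 542.1 with Apoer2 and 442.1 and 421.8 without it (-0.30, SE 0.12). Idi1 (-0.32) and Lss (-0.28), 2 other enzymes of the route, also separated the groups. Mitochondrial respiration genes had 12 of 17 members higher in both pairs and 0 lower, by small amounts: the median was 0.06 and 0.17, and the highest, Ndufa4, a respiratory chain gene, read 3714.5 and 3871.6 against 4255.5 and 4525.3. In the sterol list 1 member, Dhcr7, and in the mitochondrial list 0 members reached an unadjusted limma p of 0.05.

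Clock genes had 7 of 17 members higher in both pairs and 2 lower (28.2% and 23.6% of autosomal genes), with Per2 (0.54) highest and Arntl (-0.36) lowest. Heat shock and endoplasmic reticulum stress genes had 1 of 19 higher in both pairs and 8 lower, from Ddit3 (0.40) to Sdf2l1 (-0.38). Interferon response genes had 9 members past the filter, 2 higher in both pairs and 3 lower, from H2-K1 (0.25) to Ifit3 (-0.82). None of the 3 lists had a member past an adjusted p of 0.05 in limma.

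Marker genes of cell types were followed in the same pairs, since samples can differ in the tissue they hold. Granule cell markers had a median of -0.06 in the Vldlr-positive pair and -1.66 in the Vldlr-null pair, where 17 of 17 were lower. Gabra6, a GABA-A receptor subunit gene of granule cells, read 1797.0 in Wild type, 1247.6 in VLDLR KO, 2014.9 in APOER2 KO and 106.6 in APOER2-VLDLR KO. The summed granule signal was 19119.7, 15891.3, 18981.7 and 5997.5 in that order, and 5038.0 to 7548.4 outside the cross. Within the cross APOER2-VLDLR KO was low and the other 3 arrays were high. In both pairs together, 10 of the 17 markers were lower, 0 higher and 7 opposite, and 3 were lower without overlap. The shares over autosomal genes were 23.6%, 28.2%, 48.2% and 13.6% in that order.

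Myelin genes were lower for 13 of 15 members in the Vldlr-positive pair (median -0.09) and higher for 14 of 15 in the Vldlr-null pair (0.27). Purkinje cell genes were lower for all 11 members past the filter in the Vldlr-null pair (median -0.27), with a median of 0.10 in the Vldlr-positive pair. Astrocyte genes ranged from Gjb6 (0.38), a gap junction gene, to Aqp4 (-0.66) in mean difference, with a median of -0.03 in each pair. Microglial genes had medians of -0.14 and -0.06 over 10 members, with Fcrls lowest. Cortical markers varied little: the median was 0.12 and -0.02 for upper layers, 0.11 and -0.17 for deep layers, 0.10 and -0.01 for interneurons and -0.07 and 0.02 for excitatory neurons.

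Of 9 named pituitary genes, 4 passed the filter, Gh and Pomc among them. Pomc read 341.3 in APOER2 KO and 113.6 to 154.3 on the other arrays of the cross. Prl, the prolactin gene, did not pass the filter. It read 192.6 in APOER2 KO and 13.3 to 50.2 on the other arrays of the cross, where the highest bacterial control read 20.1 to 38.9. The high hormone signal of APOER2 KO was not shared by APOER2-VLDLR KO. Its part in the differences of the Vldlr-positive pair was not tested.

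**Figure D5:**
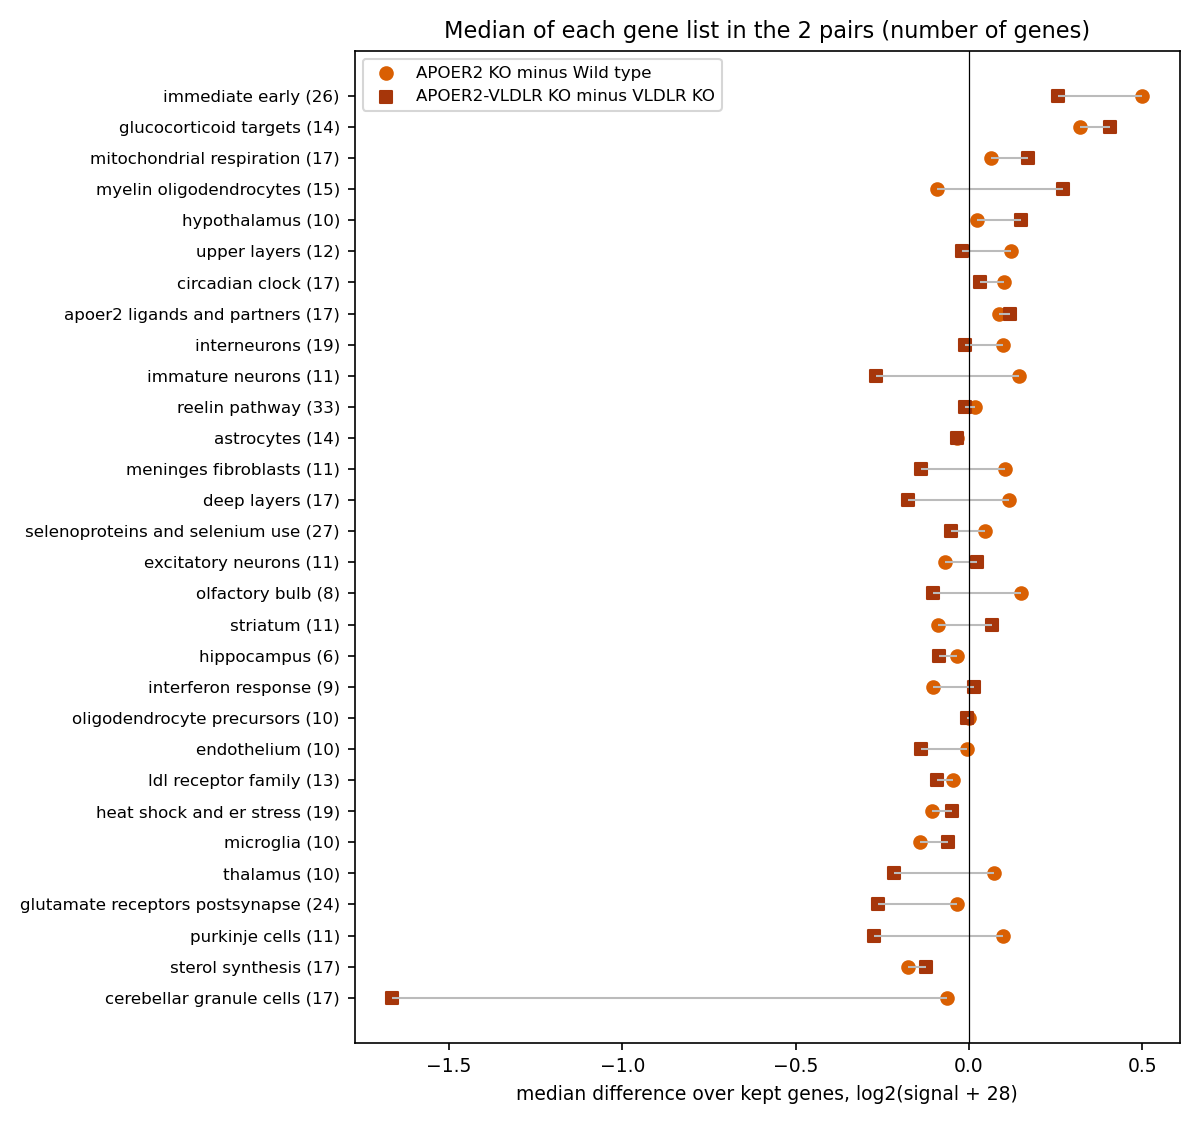
Median log2 difference of each gene list in the Vldlr-positive pair (circles) and the Vldlr-null pair (squares), with the number of genes past the filter in parentheses; lists with 4 genes or fewer are not drawn. Immediate early genes (0.50 and 0.26) and glucocorticoid targets (0.32 and 0.41) lie above 0 in both pairs, myelin genes lie at -0.09 and 0.27, and granule cell genes lie near 0 in one pair and at -1.66 in the other.

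Other genes reversed between the pairs. Gdpd3, a phospholipase gene, read 55.0 in Wild type and 232.7 in APOER2 KO, but 467.7 in VLDLR KO and 24.5 in APOER2-VLDLR KO. Zap70, a kinase gene of T cells, read 179.4 and 472.2 in the first pair and 460.1 and 59.9 in the second. Ap4m1, an adaptor complex gene, read 197.6 and 20.8, then 149.0 and 216.0. For these genes the direction of the difference depended on which pair was read.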

How the data were processed

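RNA-Stat60 extraction and 3' IVT PLUS labelling of total RNA are given per the labels. The authors deposited linear signal intensities from MAS5 in Affymetrix Expression Console, per the submitters' processing notes. No version or genome build is given in the sources used here. Of 45101 probe sets, 34958 named 1 gene in the platform annotation, 932 several and 9211 none here. RefSeq's gene table matched 34754, served for names and gene order, and changed 0 symbols. Each gene took its probe set of highest mean signal over 6 arrays (those ending in _x_at last). Genes with a mean signal of at least 89.0 entered the fits.

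The scale was log2(signal + 28). The main test was limma 3.58.1 in R 4.3.3, without Apoer2 against with it on 4 arrays, with a trended prior and Benjamini-Hochberg adjustment over 11499 genes. It was also run on simulated data with independent errors. Differences of sex or tissue between arrays were not simulated, so that run does not vouch for the p-values here. Pair differences have 1 array per side and no test, and the number of arrays limits precision. Genes named are Lrp8, Vldlr, all adjusted calls, the 12 highest and 12 lowest by the smaller pair difference, the 3 highest and 3 lowest with opposite pairs, sex genes, Gh and list members. Members at 1.5-fold, both pairs, were all named. Members and lists were chosen with earlier results of these data known, so they are descriptions and no independent evidence. Examples within lists, Prl, Pomc and gene neighbours were picked with their values in view. The alternatives comprised other pseudocounts, filters, normalization, probe set choice, a Vldlr term, no trend, the outside arrays added and each array left out.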

Additional observations from a re-analysis of the deposited data

Results flagged for a closer look

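Some values had opposite signs in the pairs of like Vldlr status. With 1 array per genotype, none of these differences was tested. Each value is the log2 difference in the Vldlr-null pair minus that in the Vldlr-positive pair.

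Among single genes the differences were -6.62 for Gh, -4.89 for Gdpd3, -3.74 for Zap70, 2.67 for Ap4m1, 2.61 for Slc6a5, a glycine transporter gene, and 2.25 for Zswim3. Among immediate early genes they were -1.45 for Nr4a3, -1.03 for Dusp5, -0.87 for Nr4a2, -0.44 for Dusp6, 0.11 for Jun and 1.13 for Btg2.

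Among list medians, immature neurons differed by -0.41, Purkinje cells by -0.37, thalamus by -0.29, deep layers by -0.29, olfactory bulb by -0.25 and meninges by -0.24. Smaller negative values were -0.14 for upper layers, -0.11 for interneurons, -0.10 for selenoproteins, -0.0296 for the reelin pathway and -0.0053 for oligodendrocyte precursors. Positive values were 0.36 for myelin, 0.16 for striatum, 0.12 for interferon response and 0.0897 for excitatory neurons.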

How the results depend on the processing

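None of the 37 genes at 1.5-fold in both pairs reversed its direction under the alternatives run, and neither did the immediate early or the glucocorticoid list. Genes named for opposite pairs, such as Gh, were not in that count, and other list medians near 0 were not read for direction. The 3 limma calls became 0 with no filter (Lrp8 adjusted p = 0.0585 and Pam 0.0556, with 412 higher and 298 lower genes at an unadjusted p of 0.05) and 1, Pam, with a filter at 297.5, which Lrp8 does not pass. Leaving out 1 array gave 3 to 16 calls: 6 without Wild type, 3 without VLDLR KO, 16 without APOER2 KO, among them Fat2 and Gabra6, and 6 without APOER2-VLDLR KO, among them Gh and Xist. The lone array of an arm is then assumed to vary like the others. Vldlr status as a term, which pairs the arrays of like Vldlr status, gave 4 calls, adding Fos. The labels carry no replicate numbers for any other pairing. The 19 genes at least 1.5-fold higher in both pairs became 39 with a pseudocount of 1, 11 with a pseudocount of 89.4, 88 with no filter, 11 with the stricter filter, 12 with the mean of all probe sets and 3 at 2-fold. The 18 lower genes became 9 with a pseudocount of 89.4, 64 with no filter, 5 with the stricter filter and 2 at 2-fold. No pair count could leave out an array, since 1 pair would remain. The causes were not tested. Lrp8 passed in 11 of 12 alternatives that measured it, Pam in 12 of 13 and Gnb1 in 5 of 13 (adjusted p 0.0149 to 1.0). The median of immediate early genes ran from 0.22 to 0.60 and that of glucocorticoid targets from 0.09 to 0.41. Of 460 alternatives for the 37 genes at 1.5-fold in both pairs, 446 kept direction and side of the threshold, 10 lost and 4 gained the call. Of 363 for list medians, 301 moved by less than the SD between the pairs and 62 by more. With 1 mouse per genotype, effects of genotype, animal and dissection cannot be told apart.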
